A study of Mus musculus with 11 samples.

Results

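The genes described here were those whose transcripts stood apart in the mouse liver around birth, at embryonic day 18 (E18) and postnatal day 5 (P5), from both earlier and later liver, at embryonic day 14 (E14) and postnatal day 56 (P56). A gene belonged to the set if both perinatal stage means lay above, or both below, both end stage means, each stage counting equally. Of 16695 genes tested, 5134 met this order of means, 2742 with the perinatal stages above and 2392 with them below. The order alone takes no account of replicate error. A gene was therefore called when all 4 pairwise differences (E18 and P5, each against E14 and P56) had the same sign and the largest of their 4 p-values, from limma with Benjamini-Hochberg adjustment over all genes, passed 0.05. By this test 338 genes (2.02%) were higher at both perinatal stages than at both ends and 93 genes (0.557%) were lower. The arrays of the perinatal and end stages did not overlap for any gene called, which the call itself favours, nor for 1776 of all genes tested.

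The fetal liver is the main site of blood formation before birth, and its hepatoblasts mature into hepatocytes while blood formation moves to the bone marrow. At birth the supply of glucose and lipid through the placenta ends, and the newborn lives on fat-rich milk, which the liver meets with fatty acid oxidation, ketone production and gluconeogenesis. Hepatocytes also take up the secretion of most plasma proteins over this period, among them carriers, coagulation factors and protease inhibitors.

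The series held 11 two-colour arrays, 3 of E14, 3 of E18, 2 of P5 and 3 of P56 liver, labelled as biological replicates of normal mice. Sample RNA was labelled with Cy5 and hybridized against 1 commercial adult liver RNA in Cy3, with no dye swap, so values are log2 ratios to adult liver, a difference of 1 is a 2-fold difference, and the reference cancels between stages. The labels gave no strain, sex, litter or pooling. They named liver as the source of every sample but hepatoblasts (E14), immature hepatocytes (E18) and hepatocytes (P5 and P56) as the cell type, and the methods mention both whole livers and isolated cells, so which of these each array held was not settled. All 4 erythroid, 4 macrophage and 4 neutrophil markers examined were well above background at E14, E18 and P5, beside all 4 hepatocyte markers. RNA of blood and immune cells was thus detected at each of these stages, whatever the label. At P56 the hepatoblast marker Dlk1 and the endothelial marker Pecam1 were not well above background on any array, the biliary marker Epcam also was not, and the B cell markers Cd79a and Igll1 were not at E14, nor the stellate marker Des at E18, P5 or P56.

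Replicate arrays correlated at 0.987 to 0.990 within E14, 0.969 to 0.985 within E18, 0.901 within P5 and 0.827 to 0.937 within P56. Spots well above background in Cy5 numbered 24415 to 25718 on the perinatal arrays, 22027 to 23957 on the E14 arrays and 16790 to 23079 on the P56 arrays. The perinatal arrays thus detected more spots than any end stage array, and the part this played in the calls was not tested. The arrays were read in 4 scans, the first holding E14 and E18 replicate 1, the second the other E18 arrays, the third P5 replicate 2 and the fourth P5 replicate 3 with P56. Where stages shared a scan the differences could be taken within it. Their medians were 1.47 (E18 over E14) and 1.02 (P5 over P56) over the higher genes and -0.75 and -0.75 over the lower genes. The signs within scans follow from the call, since the arrays of called genes do not overlap, and the part of the scan in the calls was not tested.

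The 2 directions differed in size and number. The smallest of a gene's 4 differences, called the margin below, had a median of 0.92 over the higher genes and -0.62 over the lower genes, and reached 1 or more in 143 higher but only 6 lower genes. The higher genes had median log2 ratios of -1.12 at E14, 0.39 at E18, 0.24 at P5 and -0.91 at P56. The lower genes had medians of 0.88, -0.01, 0.03 and 0.84. The perinatal medians were thus nearer to the adult reference than those of the P56 arrays, themselves adult liver, in both directions. The margins ran from 4.97 to -1.30. At the threshold lay Slc44a3 (margin 0.56, adjusted p 0.0499, called) and Snag1 (0.40, not called, its adjusted p above 0.05) on the high side, and Pomp (-0.54, 0.0494, called) and 1110059P08Rik (-0.43, 0.0505, not called) on the low side.

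These counts leaned on normalization. When loess was replaced by centring on array medians, the median of all genes moved from 0.0057 to 0.242 and the calls became 903 higher and 6 lower, that is 99.3% higher against 78.4%. With loess followed by scaling of log ratios between arrays they were 86 and 10. Without P5 replicate 2 they were 182 and 20.

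The plot of perinatal against end stage differences places the called genes among all genes tested.

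**Figure D1:**
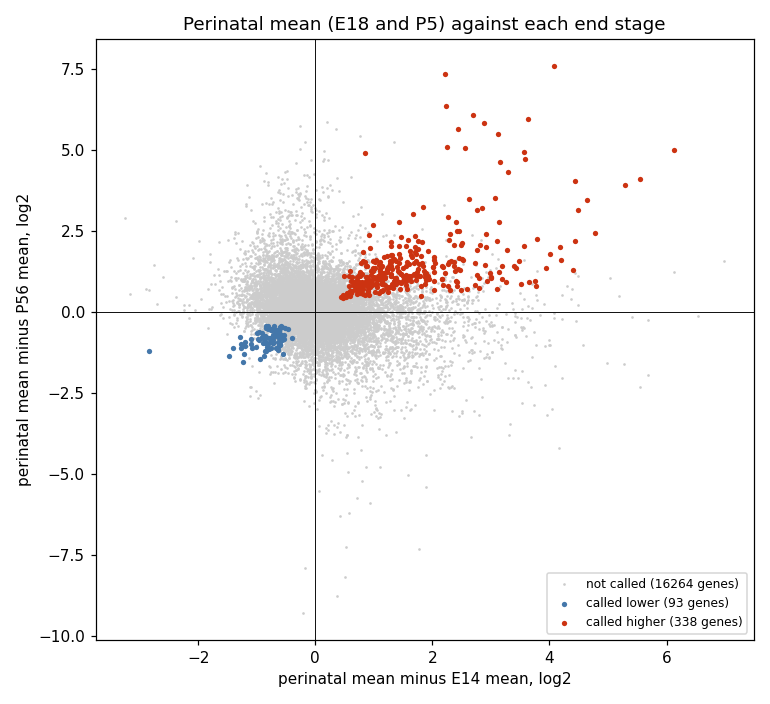
Mean of E18 and P5 minus the E14 mean (x axis) and minus the P56 mean (y axis), both log2, for 16695 genes, with the 338 genes called higher and the 93 called lower in colour. The higher genes extend much farther from 0 than the lower genes, whose margins end at -1.30.

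Igfbp1, which encodes an insulin-like growth factor binding protein that the liver secretes and that insulin represses, had the largest margin of the genes well above background at every stage. Its log2 ratio was -1.44, -1.80 and -0.95 on the E14 arrays, 4.47, 5.09 and 4.73 at E18, 4.47 and 4.94 at P5, and 1.28, -1.09 and -1.01 at P56. All 5 perinatal arrays lay between 4.47 and 5.09, above the other 6, of which P56 replicate 1 was the highest. E18 exceeded E14 by 6.16 ± 0.50 (SE) and P5 exceeded P56 by 4.97 ± 0.56, with an adjusted p of 0.00049 from limma for the least certain difference. The Cy5 spot was saturated on 5 arrays, so the perinatal level may be understated. Its probe lies at chr11:7154447-7154506 (mm7, plus strand). The 250 bases before the RefSeq start of the gene are shown because this stretch holds, in capitals, a match to CAAAACAA, letters of the insulin response element known from this promoter:

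Igfbp1: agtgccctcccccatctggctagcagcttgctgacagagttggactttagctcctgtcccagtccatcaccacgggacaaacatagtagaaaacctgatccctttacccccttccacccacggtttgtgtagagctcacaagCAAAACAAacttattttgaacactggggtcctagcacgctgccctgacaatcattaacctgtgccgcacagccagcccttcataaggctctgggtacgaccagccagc

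The stretch is chr11:7197537-7197786 of GRCm38.p6, plus strand, and the match begins 108 bases before the start. CAAAACAA on either strand was present in 1.49% of the 202 higher genes with a promoter in the table, in 0% of 61 lower genes and in 1.57% of all 9417 tested genes with one. The forkhead motif GTAAACA had shares of 3.47%, 0% and 2.45%. Neither motif thus marked the higher genes as a group.

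Igfbp2, a related binding protein, was also higher at both perinatal stages (margin 1.00, adjusted p 0.0023), but with a gap between them. Its values were -3.17, -3.16 and -3.64 at E14, 0.04, -0.07 and 0.07 at E18, 2.80 and 3.01 at P5, and -1.01, -1.17 and -0.79 at P56. None of the 4 stages overlapped, and P5 exceeded E18 by 2.89 ± 0.16 (adjusted p 1.3e-06). Of 20 measured genes of the growth hormone and insulin-like growth factor list these 2 were called (10%, against 2.02% of all genes). The list's median contrast of means (mean of E18 and P5 minus mean of E14 and P56) was 0.33, beside 0.0057 over all genes tested.

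Among the 12 higher genes with the largest margins, 6 besides Igfbp1 were not myeloid granule genes. Akr1b7, an aldo-keto reductase, had values of -0.14, -0.24 and 0.35 at E14, 4.59, 4.60 and 4.51 at E18, 4.48 and 4.06 at P5, and -0.37, 0.62 and 0.85 at P56. Both ends lay near the adult reference and all perinatal arrays lay above 4, a margin of 3.91 (adjusted p 2.2e-05). Lpl, lipoprotein lipase, which releases fatty acids from circulating triglyceride and which adult hepatocytes scarcely express, had values of -1.56, -2.03 and -1.71 at E14, 2.00, 1.83 and 2.20 at E18, 1.74 and 1.47 at P5, and -3.14, -2.67 and -2.98 at P56. It thus passed from below adult reference RNA to above it and back, with a margin of 3.37 (adjusted p 2.0e-06), and a second Lpl probe gave a contrast of means of 2.65. Tff3, a secreted trefoil peptide of mucosal epithelia, had a margin of 3.43 with a wider spread at P56, from -1.79 to -0.11.

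Rsad2 and Isg20, both interferon-induced antiviral genes, had margins of 3.29 and 2.75. Rsad2 was at -2.25, -2.49 and -2.17 at E14, 3.23, 3.60 and 4.07 at E18, 2.75 and 1.96 at P5, and -0.82, -0.89 and -1.09 at P56. It was higher at E18 than at P5 (difference P5 minus E18 -1.28 ± 0.25, adjusted p 0.0062). Rsad2 was the 1 member of 35 measured on the interferon-stimulated list to be called (2.86%, near the 2.02% of all genes), while 16 had the order of means (45.7%, against 16.4%) and 28 were higher in the contrast of means. The members' median contrast was 0.68, and the array medians of the list were -1.33 to -0.98 at E18 and -1.55 to -1.33 at P56. With median centring 16 of the 35 were called. Itih3, a heavy chain of the inter-alpha-trypsin inhibitors, which bind hyaluronan in plasma and matrix, is described with its family below.

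**Figure D2:**
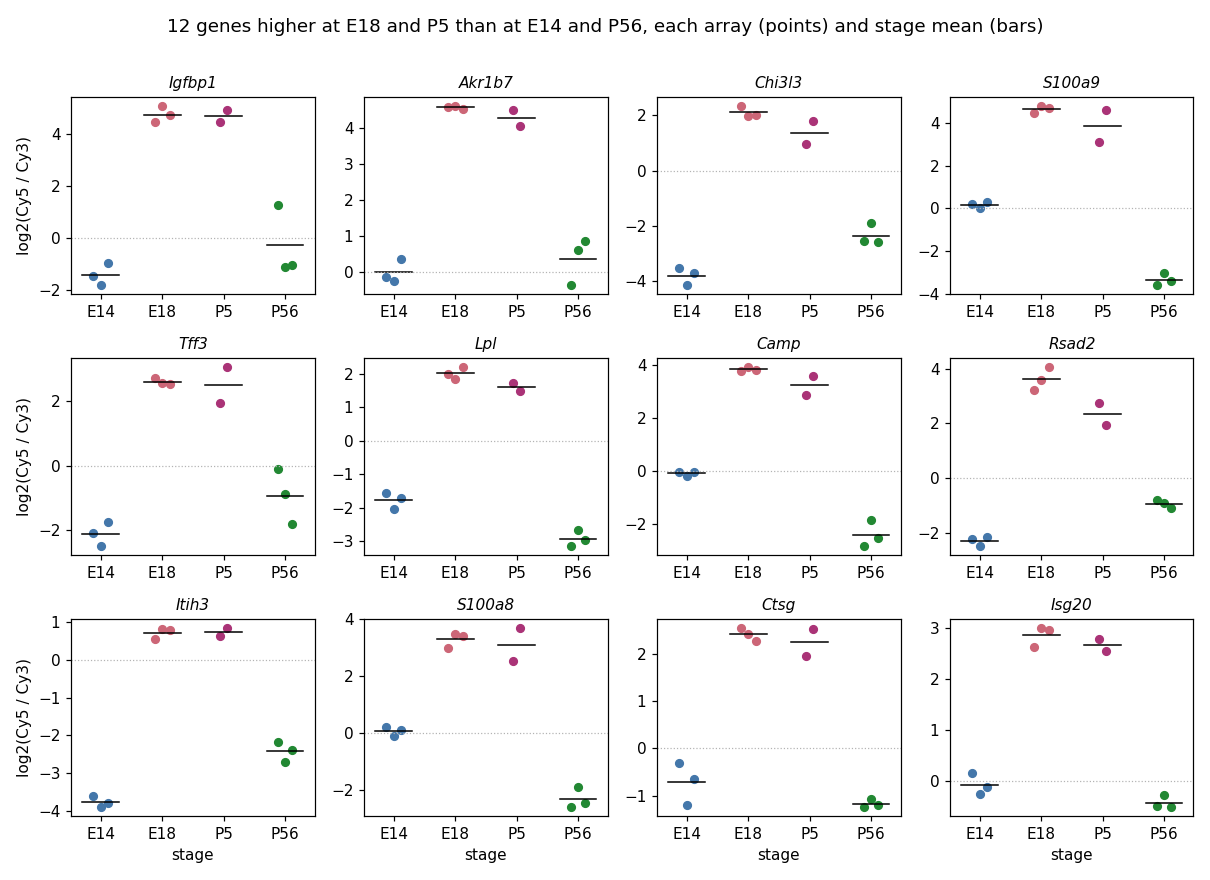
Log2 ratio of sample to adult liver reference on each array (points) and stage mean (bars) for the 12 higher genes with the largest margins, by stage on the x axis. All perinatal points lie above all end stage points in each panel, and Igfbp1 at P56 holds a point at 1.28 above the other P56 arrays.

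Myeloid genes had the highest share of calls among the 27 lists. Of 28 measured genes of neutrophil granules and myeloid precursors, 16 were called higher (57.1%, against 2.02% of all genes) and none lower, and all 28 were higher in the contrast of means, in which 27.6% of all genes were higher and 21.3% lower. The list's median contrast was 2.18. Its median log2 ratio lay at -0.20 to -0.02 on the E14 arrays, 2.08 to 2.33 at E18, 1.10 to 1.19 at P5 and -0.73 to -0.36 at P56. The stages did not overlap. In RNA of whole tissue or mixed cells, more cells of a type and more RNA per cell cannot be told apart. Scaling between arrays gave 3 calls in the list.

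S100a9 and S100a8 encode the subunits of calprotectin, the most abundant cytosolic protein of neutrophils. S100a9 was at 0.21, 0.01 and 0.31 at E14, 4.44, 4.78 and 4.67 at E18, 3.12 and 4.62 at P5, and -3.60, -3.03 and -3.41 at P56. Both P5 arrays lay above every E14 array, though apart from each other (margin 3.69, adjusted p 0.00011). The Cy5 spot was saturated on all 5 arrays with the highest values. S100a8 gave a margin of 3.02, with perinatal arrays between 2.52 and 3.69. Its promoter is given since it shows a TATA box (TATAAA, in capitals) 30 bases before the start:

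S100a8: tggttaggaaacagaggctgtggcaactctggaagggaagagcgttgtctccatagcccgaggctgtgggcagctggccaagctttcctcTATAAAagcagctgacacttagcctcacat

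These 120 bases are chr3:90668951-90669070 of GRCm38.p6, plus strand. TATAAA on either strand was found within 250 bases before the start in 11.9% of the 202 higher genes, 3.28% of the 61 lower genes and 8.68% of all tested genes. GAGGAA, the core bound by the myeloid factor PU.1, was found in 32.2%, 14.8% and 22.5%.

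Granule contents of different kinds stood together. Camp, the antimicrobial cathelicidin of secondary granules, was at -0.03, -0.18 and -0.05 at E14, 3.79, 3.94 and 3.82 at E18, 2.89 and 3.59 at P5, and -2.84, -1.86 and -2.52 at P56. Ltf (lactoferrin) and Ngp of the same granules had margins of 2.50 and 2.09. Ctsg, the serine protease cathepsin G of primary granules, had a margin of 2.97 with perinatal arrays between 1.97 and 2.56 and end arrays between -1.24 and -0.31. Ela2, neutrophil elastase, had a margin of 1.41. Mpo, myeloperoxidase of the same granules, did not pass (margin 0.94, adjusted p 0.064), with stage means of 1.09, 2.82, 2.02 and -2.84. Mmp8, the neutrophil collagenase, and Pglyrp1, a peptidoglycan recognition protein, passed with margins of 1.43 and 1.20. Genes of the list that were not called had the same order or nearly so: 27 of 28 had both perinatal means above both ends, the exception being Csf3r, the receptor of granulocyte colony-stimulating factor, whose means at E18 (-0.72) and P5 (-0.40) were not above that at P56 (-0.34).

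Chi3l3 (now Chil3), a chitinase-like secreted protein of myeloid cells, was at -3.53, -4.14 and -3.70 at E14, 2.34, 2.00 and 2.03 at E18, 0.96 and 1.81 at P5, and -2.56, -1.90 and -2.58 at P56, a margin of 3.73 (adjusted p 1.9e-05). Its close relative Chi3l4 had a margin of 1.58. The near-identical sequences of this pair can share label on the array, so their separate values are uncertain.

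Several myeloid genes were not well above background on any P56 array. Only a bound can be given for their difference from P56. It was taken both from the log2 ratios and from the Cy5 channel alone. In the Cy5 channel each dim array counted at its own signal, or at that array's dimmest signal above background where this was higher. The smaller fold is printed. No dyes were swapped, so it is open to dye bias. Stfa2l1 was at least 82.1-fold higher at E18 and at least 56.6-fold higher at P5 than at P56, Stfa3 at least 61.7-fold and 41.5-fold, and Stfa2 at least 42.2-fold and 27.9-fold. These are stefin A genes, which encode cystatin-type inhibitors of cysteine proteases and lie in a cluster of close copies on chromosome 16. All 4 stefin A genes measured were called higher (100%, against 2.02% of all genes). They were chosen as a family after their values were seen, and 0 of the 4 were called after scaling between arrays. None remained among the genes tested when probes had to be well above background on all 11 arrays. Stfa2l1 was at 3.09, 2.83 and 3.11 at E14, 5.93, 6.09 and 5.92 at E18, and 5.59 and 5.30 at P5, with P56 arrays between -0.51 and -0.26. The E14 arrays already lay far above P56, and the perinatal arrays lay higher again. The label of these copies may be shared. Their promoters are set side by side because the copies resemble each other there too, with a TTTAAAA stretch (capitals) at nearly the same place:

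Stfa2: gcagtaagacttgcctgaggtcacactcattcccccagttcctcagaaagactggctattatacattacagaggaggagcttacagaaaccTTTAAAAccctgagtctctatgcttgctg
Stfa2l1: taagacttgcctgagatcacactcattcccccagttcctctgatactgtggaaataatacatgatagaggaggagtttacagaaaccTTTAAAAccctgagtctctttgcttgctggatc
Stfa3: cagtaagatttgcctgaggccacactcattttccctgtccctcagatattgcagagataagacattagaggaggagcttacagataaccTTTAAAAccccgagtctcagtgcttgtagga

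The stretches, each of 120 bases of GRCm38.p6, are chr16:36408364-36408483 (minus strand), chr16:36156691-36156810 (plus) and chr16:36455393-36455512 (minus). TTTAAAA begins 29, 33 and 31 bases before the start. Over 250 bases before the start the 3 pairs were 81.2% to 90.8% identical. Across genes TTTAAAA was found in 4.95% of higher, 3.28% of lower and 6.05% of all tested genes.

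Of the other genes dim at P56, Retnlg, a resistin-like peptide of granulocytes, was at least 10.9-fold higher at E18 and 4.42-fold at P5, and Ms4a3, of granulocyte-monocyte precursors, at least 8.6-fold and 7.82-fold. Chi3l4, dim at E14, was at least 8.14-fold and 3.9-fold higher than at E14. Of the 290 higher and 59 lower genes with a gene symbol, 19 and 0 were not well above background on any array of a stage on their low side. The share over all genes tested was not counted, so nothing is read from these numbers.

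Macrophage genes followed with 9 of 26 called higher (34.6%, against 2.02% of all genes) and a median contrast of 0.95. Marco, a scavenger receptor of macrophages, was at -3.23, -3.76 and -3.42 at E14, -1.93, -1.61 and -1.57 at E18, -0.15 and -0.71 at P5, and -4.13, -3.66 and -3.78 at P56. All stages lay below the adult reference, and P5 exceeded E18 by 1.27 ± 0.21 (adjusted p 0.0022). Ctss, the lysosomal protease cathepsin S, had a margin of 1.58 (1 E14 array without a value), and Spic, the factor that directs iron-recycling macrophages, of 1.54. Slc40a1 (ferroportin, the iron exporter) and Hmox1 (haem oxygenase), of the same iron-recycling function, had margins of 0.93 and 0.83. Emr1 (the F4/80 antigen), Cd5l, C1qc and Cybb completed the 9. The list's array medians were -2.66 to -2.28 at E14, -1.37 to -1.09 at E18, -1.08 to -0.84 at P5 and -2.16 to -1.35 at P56. Scaling between arrays gave 1 call in the list and median centring 19.

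B cell precursor genes leaned towards E18. Igh-6, the immunoglobulin mu heavy chain, was at -2.47, -2.70 and -2.68 at E14, 1.04, 1.03 and 1.14 at E18, 0.26 and -0.45 at P5, and -1.86, -1.45 and -1.78 at P56. It was lower at P5 than at E18 by -1.16 ± 0.19 (adjusted p 0.0021). Cd79b, a signalling chain of the B cell receptor, had a margin of 1.17 and was likewise lower at P5 (-0.84 ± 0.18, adjusted p 0.011). These 2 of 22 were called (9.09%, against 2.02% of all genes), and the list's median contrast was 0.80. A second Igh-6 probe gave a contrast of means of 0.98. Igh-6 lost its call with scaling between arrays and with the authors' table.

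Erythroid genes as a list did not lie above both ends. Of 29 erythroid genes 0 were called, although their median contrast was 1.22, and E14 was not below E18 in the list's array medians, which were 3.18 to 3.25 at E14, 2.90 to 2.99 at E18, 2.13 to 2.77 at P5 and -0.02 to 0.03 at P56. Cell cycle genes behaved alike in this respect, with 0 of 46 called, a median contrast of 1.11 and array medians of 2.90 to 2.93, 2.45 to 2.63, 2.02 to 2.63 and -0.50 to -0.28. Megakaryocyte (0 of 18) and T and natural killer cell genes (0 of 17) had no call. Over all genes 2.02% were called, so lists this short can hold none, and nothing is read from these counts of 0. Both perinatal means lay above both ends in 16.7% of the megakaryocyte list and 11.8% of the T and natural killer cell list. The share was 13.8% in the erythroid list and 16.4% over all genes.

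**Figure D3:**
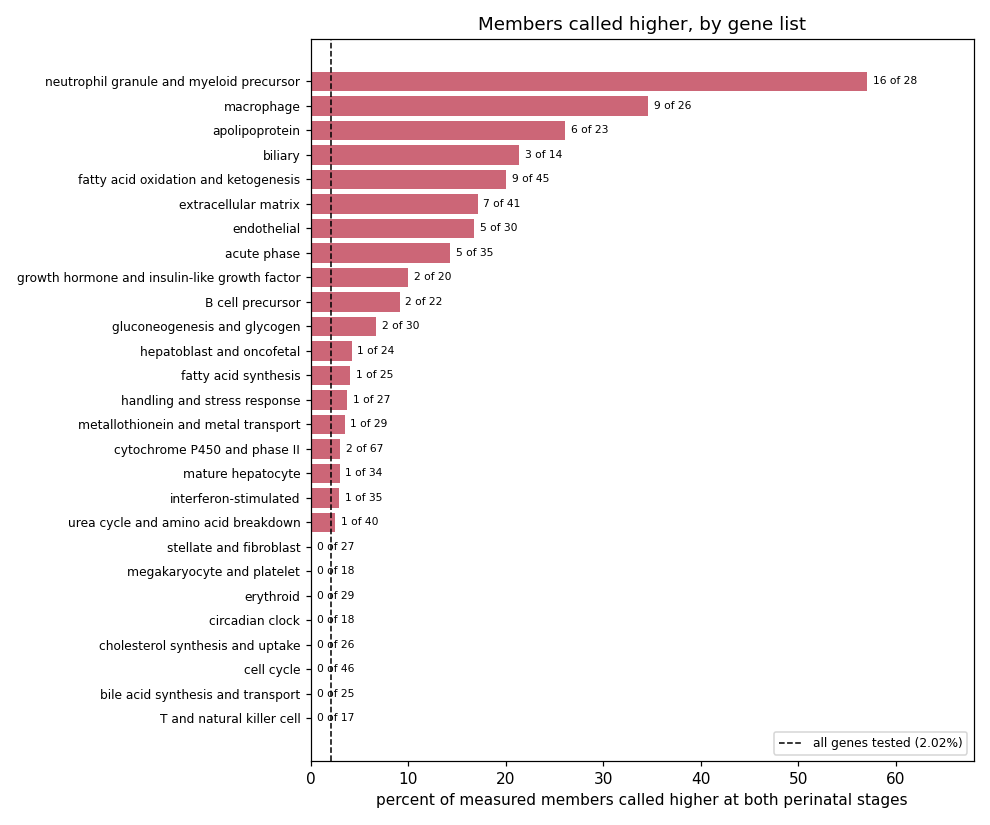
Share of measured genes called higher at both perinatal stages (percent, x axis) in each of 27 gene lists, with the number called of the number measured; the dashed line marks the 2.02% of all genes tested. The neutrophil granule list stands farthest to the right, and no gene of any list was called lower.

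Of 34 mature hepatocyte genes 1 was called (2.94%, near the 2.02% of all genes), and 3 had the order of means (8.82%, against 16.4% of all genes). The called gene was Ahsg, which encodes fetuin-A, a plasma protein that keeps calcium salts in solution. Ahsg was at -2.85, -2.86 and -2.66 at E14, 1.40, 1.71 and 1.54 at E18, 0.96 and 1.52 at P5, and -0.37, -0.66 and -0.77 at P56 (margin 1.84, 4 arrays saturated). The array medians of the whole list were highest at P56, at -3.80 to -3.52, -1.32 to -1.08, -0.79 to -0.69 and -0.11 to 0.55. Trf, transferrin, the iron carrier of plasma, was at -3.15, -3.03 and -2.70 at E14, 1.32, 1.46 and 1.40 at E18, 0.29 and 0.23 at P5, and -1.37, -1.72 and -1.17 at P56. It was highest at E18, and P5 was lower by -1.14 ± 0.16 (adjusted p 0.0011). Its spot was saturated on 4 arrays.

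Gpc3, a heparan sulphate proteoglycan of the oncofetal list (1 of 24 called, or 4.17%, against 2.02% of all genes), differed in kind. It was at 4.26, 4.33 and 4.13 at E14, 5.22 and 5.10 at E18 (1 array without a value), 5.08 and 4.97 at P5, and 0.12 to 0.23 at P56. The smaller perinatal mean lay only 0.78 above the E14 mean and 4.84 above the P56 mean. Afp was not called and was saturated on 8 arrays, so its order among E14, E18 and P5 could not be read.

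Of 35 acute phase genes, 5 were called (14.3%, against 2.02% of all genes). Besides Itih3 and Itih4 these were Lbp, which hands bacterial lipopolysaccharide to its receptor (margin 1.43), Apcs, the serum amyloid P component (1.28), and Stat3, the transcription factor downstream of interleukin 6 (0.97). The list was mixed in direction, with 22 of the 35 higher and 7 lower in the contrast of means. Scaling between arrays gave 1 call in it. Itih3 was at -3.59, -3.89 and -3.79 at E14, 0.54, 0.82 and 0.79 at E18, 0.64 and 0.84 at P5, and -2.16, -2.71 and -2.39 at P56, with a margin of 3.14. Looking then at the whole family, chosen after these values were seen, 4 of the 5 measured heavy chains were called (80%, against 2.02% of all genes). These were Itih2 (margin 2.35), Itih3, Itih4 (0.46) and Itih5 (1.26). Itih1 had both perinatal means above both ends, by at least 0.12, and did not pass. The family median contrast was 1.38, and scaling between arrays gave 1 call.

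Among 20 coagulation genes, also grouped after values were seen, 5 were called (25%, against 2.02% of all genes). Kng1, kininogen, the precursor of bradykinin, was at -3.17, -3.59 and -3.18 at E14, 1.29, 1.09 and 1.11 at E18, 1.17 and 1.00 at P5, and -0.80, -1.52 and -0.90 at P56. F11 (margin 1.49) and F10 (0.64) are clotting protease precursors, Plg (1.41) is the clot-dissolving plasminogen, and Serpinf2 (1.38) is the inhibitor of plasmin. Among members that were not called, F9 had stage means of -2.92, -1.48, -0.75 and 0.59, and F2 (prothrombin) of -3.74, 0.20, -0.10 and -0.31. The family's 5 calls became 0 after scaling between arrays.

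Fatty acid oxidation and ketogenesis gave 9 calls among 45 genes (20%, against 2.02% of all genes), with a median contrast of 0.86. Both perinatal means lay above both ends in 15 of the 45 (33.3%, against 16.4% of all genes). The list's array medians were -2.00 to -1.91 at E14, -0.51 to -0.40 at E18, 0.14 to 0.16 at P5 and -0.45 to -0.24 at P56. The list as a whole thus overlapped between E18 and P56. Pdk4, the kinase that shuts pyruvate dehydrogenase when fat is burned, was at -0.77, -0.81 and -0.76 at E14, 1.67, 1.73 and 1.80 at E18, 2.62 and 1.87 at P5, and 0.09, 0.10 and -0.01 at P56. Both perinatal means exceeded both end means by at least 1.68 (adjusted p 0.00011). Hadhb and Hadha, the subunits of the mitochondrial trifunctional protein, had margins of 1.26 and 0.48. The dehydrogenases Acadm (0.97) and Acadl (0.78), the thiolases Acaa2 (0.86) and Acat1 (0.56), the ketone enzyme Bdh1 (0.60) and carnitine acetyltransferase Crat (0.56) completed the 9. Cpt1a, which admits fatty acids to mitochondria, was not called. Its stage means were -3.19, -1.65, -0.47 and -1.59, with the highest at P5 and an E18 mean below that of P56. Scaling between arrays gave 0 calls in this list.

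Lipid transport gave 6 of 23 (26.1%, against 2.02% of all genes). Besides Lpl these were Abca1, the cholesterol exporter (margin 1.29), Apoa1, the main protein of high density lipoprotein (1.02), Scarb1, its receptor (1.00), Apoc2, the cofactor of lipoprotein lipase (0.84), and Apom (0.74). Apoa1 was at -2.69, -2.93 and -2.80 at E14, 0.72, 0.45 and 0.48 at E18, 0.20 and 0.02 at P5, and -0.49, -1.29 and -0.97 at P56. Without P5 replicate 2, 2 members of this list were called.

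**Figure D4:**
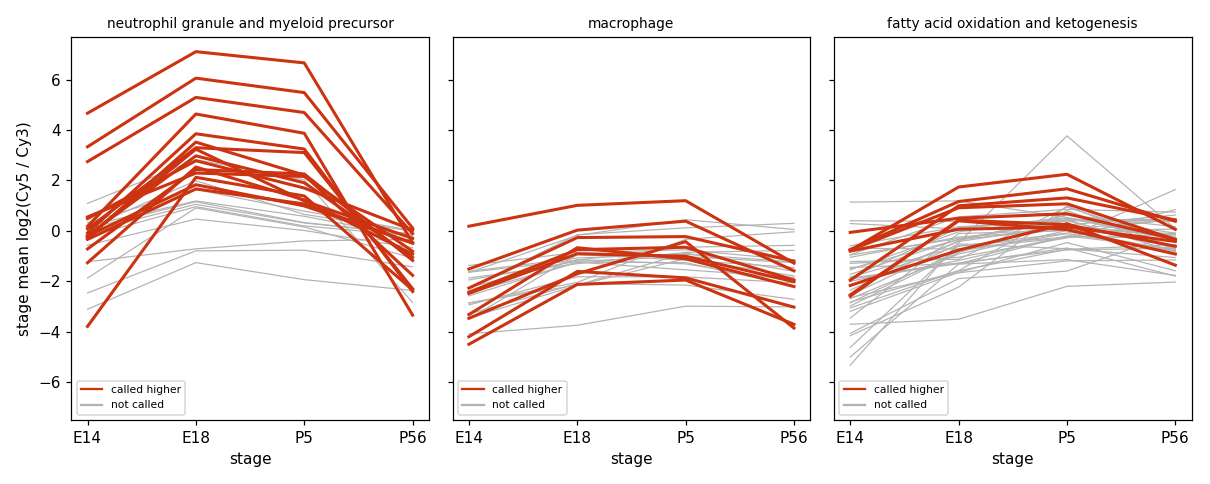
Stage means (log2 ratio to adult liver reference, y axis) joined across the 4 stages for every measured member of 3 lists, neutrophil granule and myeloid precursor, macrophage, and fatty acid oxidation and ketogenesis; red lines are members called higher and grey lines members not called. The 16 red lines of the first panel peak at E18 and P5, and those of the third panel have smaller peaks.

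Fewer calls came from other metabolic lists. Pgm2, which interconverts sugar phosphates, and Pcx, pyruvate carboxylase, the first step of gluconeogenesis, were the 2 called of 30 genes of gluconeogenesis and glycogen (margins 1.03 and 0.64). Elovl2, an elongase of polyunsaturated fatty acids, was the 1 of 25 in fatty acid synthesis (0.88), and Prodh2, an amino acid dehydrogenase, the 1 of 40 in the urea cycle and amino acid list (0.57). Each of these 2 lost its call in 9 of the 11 fits that left out 1 array. Cyp2d26 (1.27) and Cyp39a1 (1.11), an oxysterol hydroxylase of bile acid synthesis, were the 2 of 67 drug-metabolizing genes. The shares called in these lists were, in the order given, 6.67%, 4%, 2.5% and 2.99%, beside 2.02% of all genes. The lists were mixed in direction. In the contrast of means their genes higher and lower numbered 24 and 4, 7 and 8, 27 and 6, and 20 and 21. Cholesterol synthesis (0 of 26), bile acid (0 of 25) and circadian clock genes (0 of 18) gave none.

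Structural genes of the liver's vessels and ducts were among the higher genes as well. In the extracellular matrix list 7 of 41 were called (17.1%, against 2.02% of all genes), with a median contrast of 0.37. The array medians of the whole list overlapped between E14 (0.18 to 0.41) and E18 (0.38 to 0.40). Of the 7 called, 5 encode basement membrane proteins: Nid1 (nidogen, margin 1.74), Col18a1 (1.29), Col4a1 (1.20), Col4a2 (1.06) and Lamc1 (0.96). Col14a1 (0.89) and the membrane protease Mmp14 (0.76) were the others. Nid1 was at -0.24, -0.27 and -0.22 at E14, 1.59, 1.83 and 1.69 at E18, 1.83 and 1.17 at P5, and -1.73, -1.42 and -1.77 at P56. Of the 30 endothelial genes 5 were called (16.7%, against 2.02% of all genes), with a median contrast of 0.42. They were Flt1, a receptor of vascular endothelial growth factor (1.25), Aqp1, a water channel (0.82), the sinusoidal scavenger receptors Stab2 (0.79) and Stab1 (0.79), and Mmrn2 (0.54). Aqp1 was higher at P5 than at E18 by 0.87 ± 0.15 (adjusted p 0.0037). Stab2 lost its call in 9 of the 11 fits that left out 1 array, and the list had 2 calls with scaling between arrays, 1 with the authors' table and 3 without P5 replicate 2. Of 2 further Flt1 probes 1 gave a contrast of only 0.32. Stellate and fibroblast genes gave 0 of 27.

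In the biliary list 3 of 14 were called (21.4%, against 2.02% of all genes). They were Krt23, a keratin (margin 1.34), Spp1, osteopontin (0.73), and Notch2, the receptor needed for bile duct formation (0.60). Krt23 was at -1.11, -1.27 and -1.25 at E14, 0.90, 0.66 and 1.06 at E18, 2.62 and 2.07 at P5, and -0.43 to -0.56 at P56, and P5 exceeded E18 by 1.47 ± 0.16 (adjusted p 0.00017). Further Notch2 probes gave contrasts of 0.17 and -0.01, so the call rests on 1 of 3 probes. Spp1 lost its call in 7 of the 11 fits that left out 1 array. The duct keratins Krt7 and Krt19 were not called.

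Egr1, an immediate early transcription factor that also answers to tissue handling, had a margin of 1.87. It was the 1 of 27 genes called in the handling and stress list (3.7%, against 2.02% of all genes). Its values were -1.63, -1.85 and -1.92 at E14, 0.60, 0.34 and 0.17 at E18, 0.51 and 1.00 at P5, and -1.26, -1.34 and -1.90 at P56. Of 7 immediate early genes measured, grouped after values were seen, 4 had both perinatal means above both ends (57.1%, against 16.4% of all genes). These were Egr1, Junb (margin 0.73, adjusted p 0.064), Jund1 (0.27) and Fosl2 (0.16), and only Egr1 passed. Scaling between arrays gave 0 calls among the 7. Fos had stage means of -0.35, -0.32, 0.07 and -0.25 and Jun of -0.01, -0.04, 0.03 and -0.22.

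Differences were smaller among the lower genes. Serf1, a small protein that promotes amyloid formation, had the largest margin of those well above background (-1.08, adjusted p 0.010). It was at 1.91, 2.06 and 1.60 at E14, 0.48, 0.44 and 0.44 at E18, 0.53 and 1.03 at P5, and 1.86, 2.47 and 2.12 at P56. Tcea1, transcription elongation factor S-II, was at 1.31, 1.29 and 1.41 at E14, -0.01, 0.32 and 0.27 at E18, 0.16 and 0.46 at P5, and 1.12, 1.51 and 1.45 at P56, so that both ends lay at the same height. Its other 2 probes gave contrasts of -0.53 and -0.87. Tceb1 (elongin C, now Eloc) had a margin of -0.79.

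Serpina6, the plasma carrier of glucocorticoids, was the 1 secreted hepatocyte product among the 12 leading lower genes. Its values were -0.20, -0.42 and 0.07 at E14, -2.41, -2.95 and -3.01 at E18, -3.51 and -3.02 at P5, and -1.94, -1.75 and -1.78 at P56. All perinatal arrays lay below all end arrays, and P56 stayed 1.64 below E14 (difference P56 minus E14 -1.64, adjusted p 6.1e-06). Kctd15, a BTB domain protein, had a margin of -0.97, and Tubb2b, a beta tubulin of immature cells, of -1.03 with the widest spread at P56, from 0.63 to 1.66. Of the 11 fits that left out 1 array, Tubb2b lost its call in 9 and Kctd15 in 7.

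Chchd4, which oxidizes newly imported proteins of the mitochondrial intermembrane space, was at 1.84, 1.52 and 1.68 at E14, 0.65, 0.32 and 0.44 at E18, 0.52 and 0.42 at P5, and 1.12, 1.48 and 1.60 at P56. Xrcc6bp1, a mitochondrial protease, had a margin of -0.81. Rpp14, a subunit of the transfer RNA processing enzyme RNase P, had a margin of -0.84 with E18 arrays between 0.02 and 0.04. Nola3 (now Nop10), of the small nucleolar particles that pseudouridylate RNA, had a margin of -0.80 and lost its call in 5 of the 11 such fits.

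Uchl4 and Uchl3, ubiquitin hydrolases, had margins of -1.03 and -0.89. Uchl3 was at 2.20 and 2.12 at E14 (1 array without a value), 1.19, 0.88 and 0.89 at E18, 0.88 and 0.73 at P5, and 1.67, 2.01 and 1.95 at P56. This pair cannot be taken as independent, being near-identical copies. The overlap is shown by the Uchl3 probe and a second Uchl4 probe, which shared 35 bases with 3 differences (capitals):

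Uchl3 probe: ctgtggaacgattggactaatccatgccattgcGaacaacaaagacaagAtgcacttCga
Uchl4 second probe: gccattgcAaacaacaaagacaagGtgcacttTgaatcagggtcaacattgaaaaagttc

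This second Uchl4 probe gave a contrast of -1.09. The Uchl4 probe used for the values above lies at another place, where it shares no such stretch with the Uchl3 probe.

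**Figure D5:**
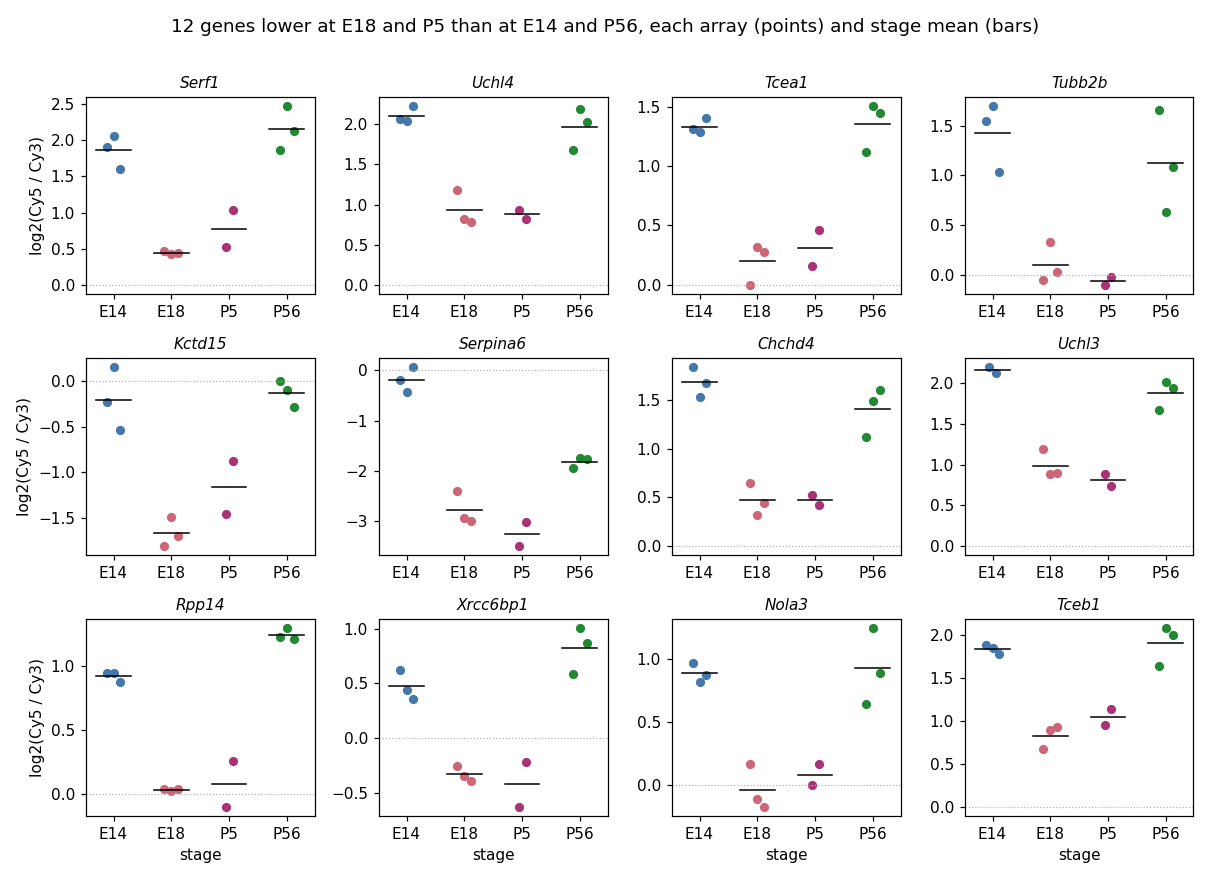
Log2 ratio of sample to adult liver reference on each array (points) and stage mean (bars) for the 12 lower genes with the largest margins, by stage on the x axis. All perinatal points lie below all end stage points in each panel, with smaller gaps than among the higher genes.

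Families of housekeeping genes were chosen after their values were seen. Of 75 mitochondrial ribosomal proteins 5 were called lower (Mrpl32, Mrpl46, Mrps18a, Mrps22 and Mrps23; 6.67%, against 0.557% of all genes) and none higher. In the contrast of means 64 of the 75 were lower and the median was -0.51. Mrpl32 was at 1.64, 1.59 and 1.47 at E14, 0.84, 0.73 and 0.77 at E18, 0.88 and 0.94 at P5, and 1.54, 1.97 and 1.87 at P56. Of 38 proteasome subunits 3 were called lower (Psma6, Psmb2 and Psmb5; 7.89%, against 0.557% of all genes). In the contrast of means 25 were lower, where 21.3% of all genes were, and the median was -0.32. Most of this lay against E14, with median differences of -0.54 (E18) and -0.58 (P5). Against P56 they were only -0.17 and -0.14. Psmb5, a catalytic subunit, was at 0.65, 0.60 and 0.52 at E14, 0.03, -0.16 and -0.02 at E18, -0.12 and -0.03 at P5, and 0.52, 0.47 and 0.70 at P56. Cytosolic ribosomal proteins (0 of 73, median -0.19) and complex I subunits (0 of 37, median -0.39) had no call.

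The calls of these families were few and changed with the setting. Without P5 replicate 2, and with the authors' table of log2 ratios, no member of either was called, and with the replicate number as a block 0 mitochondrial ribosomal proteins and 2 proteasome subunits were. With median centring the medians became -0.193 for mitochondrial ribosomal proteins and 0.00675 for proteasome subunits, or -0.435 and -0.235 relative to all genes, and again no member of either was called. Cytosolic ribosomal proteins turned to 0.387 after scaling between arrays. The mitochondrial ribosomal proteins kept a negative median under every alternative tried, from -0.669 to -0.193. This was not particular to them. The complex I subunits, none of them called under any alternative, kept one from -0.448 to -0.123. Their median differences from E14 were 0.01 at E18 and 0.31 at P5, against -1.02 and -0.76 from P56. Relative to all genes the proteasome median also stayed negative, from -0.388 to -0.235.

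CpG dinucleotides numbered a median of 15 in the 250 bases before the start of the lower genes, 7 in those of the higher genes and 14 over all tested genes. CCGGAAG, the site of ETS factors, was found in 24.6% of 61 lower genes, 5.94% of 202 higher genes and 12.4% of all tested, and GCGCATGC, the core of the NRF1 site, in 6.56%, 2.48% and 3.95%. CCAAT had shares of 41%, 34.7% and 36.7%, and GGGCGG, the GC box, of 54.1%, 49.5% and 54.2%. Mrpl32 is shown because its promoter holds 4 matches to GCGCATGC over both strands, some overlapping (capitals):

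Mrpl32: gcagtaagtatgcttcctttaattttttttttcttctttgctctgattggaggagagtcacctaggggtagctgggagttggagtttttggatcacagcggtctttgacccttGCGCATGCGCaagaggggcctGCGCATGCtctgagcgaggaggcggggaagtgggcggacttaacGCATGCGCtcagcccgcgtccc

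These 200 bases are chr13:14613038-14613237 of GRCm38.p6, minus strand. A match of letters is a description of the window and not a bound site.

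The call used the values of both E18 and P5, so it shapes the shares that differ between them, and nothing is read from these. P5 differed from E18 in 22.2% of the 338 higher genes, against 13.7% of all genes, being higher in 16 and lower in 59, where 7.32% of all genes were higher at P5 and 6.4% lower. Among the 93 lower genes it was higher in 2 and lower in 1. Examples with their higher perinatal mean at E18 were Rsad2, Retnlg (-1.31), Trf, Igh-6 and Chi3l4 (-1.09), while Igfbp2, Krt23, Marco and Aqp1 had theirs at P5.

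The 2 ends also differed in many called genes. The rule favours genes whose ends lie close together, so nothing is read from the shares that follow. Of the 338 higher genes 130 were higher at P56 than at E14, 63 were lower and 145 (42.9%) did not pass. Of the 93 lower genes 16 were higher, 13 lower and 64 (68.8%) did not pass. Over all genes 36.1% were higher at P56, 34.8% were lower and 29.1% did not pass. S100a9 (P56 minus E14 -3.52) and Camp (-2.32) were lower at P56, whereas Chi3l3 of the same list (1.45) was higher, as were Kng1 (2.24), Trf (1.54) and Itih3 (1.34).

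Rxra and Ctnnb1, the nuclear receptor and the Wnt effector that the study is about, did not have the perinatal pattern. Rxra was at -2.59, -2.73 and -2.72 at E14, -1.43, -1.13 and -1.22 at E18, -1.07 and -1.21 at P5, and -1.12, -1.23 and -1.35 at P56, so the perinatal and P56 arrays overlapped. Ctnnb1 had stage means of 0.26, 0.22, 0.15 and -0.69, with P56 below the other stages. Both nevertheless passed in the contrast of means (0.75 ± 0.08 and 0.40 ± 0.11, adjusted p 1.3e-05 and 0.011), since 1 low end stage suffices there. Another Rxra probe gave a contrast of -0.22, and other Ctnnb1 probes 0.17 and 0.02.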

How the data were processed

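RNA from 11 mouse liver samples of 4 stages was hybridized to Agilent 4x44k arrays against a common adult liver reference. The deposited scanner files, per the file headers from Feature Extraction 9.5.1.1 with probes placed on mm7, hold intensity values of Cy5 and Cy3, with local background, background flags and saturation flags. The authors also deposited a table of log2 ratios per gene, normalized with limma (version not given in the sources used here), which served as an alternative. No per-sample column was left unused (0).

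From the intensities, the mean signals were background corrected (normexp, offset 50), each array's log2 ratios were loess normalized, control spots and outlier flags were left out, and spots of a probe were averaged (43379 spots, 41174 probes). Probes well above background in Cy5 on every array of at least 1 stage were kept, 1 per gene, the brightest, leaving 16695 genes, 263 of them with a missing value. Per stage 1 array could lack a value, and such an array was dropped for that gene. Of the genes, 11725 matched RefSeq by accession, 2655 under another symbol, and the symbol of the array is printed. Stages were compared with limma 3.58.1 in R 4.3.3 (1 mean per stage, all 11 arrays, eBayes, Benjamini-Hochberg, 0.05, two-sided). The 4 pairwise contrasts decided the call, and the contrast of means is the mean of E18 and P5 minus the mean of E14 and P56. Nothing states whether replicates came from separate litters, so the p-values measure only the spread between these samples, and the number of arrays limits the precision.

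Named genes were, per direction, the 12 called genes with the largest margin that had a gene symbol, did not overlap between perinatal and end arrays and were well above background on at least 2 arrays of every stage. To these were added up to 6 called genes dim on a whole stage, up to 3 called genes per list and direction, and Rxra and Ctnnb1. Other genes of the lists are given by margin where they complete a count. The genes of the stefin, inter-alpha-trypsin inhibitor, coagulation, immediate early, proteasome, ribosomal and complex I families, Afp, and uncalled list members given for contrast, were chosen after their values were seen. All members and lists were chosen with earlier results of these data known. Promoters came from RefSeq (GRCm38.p6), matched for 202 higher, 61 lower and 9417 of all tested genes, and motifs were searched on both strands of the 250 bases before the start. Probe positions are those of the array files (mm7). The scripts were tested on simulated data. Alternatives covered background, normalization, reference channel, filter, probe choice, model, call rule and each array left out. Explanatory tests and genome alignment were not run.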

Additional observations from a re-analysis of the deposited data

How the results depend on the processing

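The counts of higher and lower genes were 338 and 93, and became 903 and 6 with median centring (307 and 1 of them shared), 86 and 10 with scaling between arrays (57 and 7 shared), 162 and 16 with the authors' table of log2 ratios, 737 and 395 when each difference passed its own adjusted p, and 143 and 6 when each difference also reached 1. The lower count alone moved by over 1.5 times with no background correction (158), a normexp offset of 10 (40), the Cy5 channel alone (180) and scan as a random block (36). In the contrast of means the counts were 4612 higher and 3558 lower, and 7813 and 948 with median centring, 2997 and 1723 within scans, 1256 and 798 with 5 arrays against 6 as 2 groups, 1187 and 823 by the methods' t-test after adjustment (2471 and 1919 before) and 892 and 196 at a difference of 1, and with scan as a fixed block 2079 were lower. The split moved from 78.4% higher to 99.3% with median centring, 89.6% with scaling, 91% with the authors' table, 88.8% with offset 10, 87.4% with scan as a random block, 96% at a difference of 1, 65.1% with each adjusted p and 59.3% with Cy5 alone. With Cy5 alone the majority also turned in the contrast of means, to 3804 higher and 4795 lower (44.2% higher). For P5 against E18 the count of 2291 became 1475, 379 and 830 with median centring, scaling and the authors' table.

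Leaving out each array gave 182 to 385 higher and 20 to 180 lower genes, 3940 to 4807 and 2772 to 3822 in the contrast of means, 929 to 3766 for P5 against E18 and 10874 to 12068 for P56 against E14. P5 replicate 2 gave the lowest counts (182 and 20) and P56 replicate 1 the highest lower count (180); the lower count was 36, 39 and 51 without E14 replicates 1, 2 and 3, 60, 42 and 42 without those of E18, and 50 without P56 replicate 3. With the replicate number as a block the counts were 238 and 40. Arrays of the same number did not deviate together (r from -0.306 to 0.187 in 15 pairs, 1 over 0.1), so the numbers were not taken as pairs.

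Of 50 named higher and 12 named lower genes, median centring kept the calls of 50 and 0, scaling of 5 and 0, and the authors' table of 33 and 3; all 62 kept their sign except 1 with median centring and 2 with scaling, whose 4 differences no longer shared a sign. The cause of these shifts was not tested. Saturated spots limit the top of the scale, and dim spots give bounds only.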
